A study of Mus musculus with 6 samples.

Results

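The S100 genes encode small calcium-binding proteins, and 7 of them were analysed in single cells of mouse melanoma tumors: S100a1, S100a4, S100a6, S100a10, S100a11, S100a13 and S100b. They were taken by symbol, each symbol matched a single gene, and they made up 7 of the 25215 genes with a value. The measure was TPM, a transcript abundance that is divided by transcript length and scaled so that every cell has the same total. The tumors came from C57BL/6 mice given 50000 cells under the skin on day 0, and tumor cells were sorted on day 15. There were 3 conditions with 2 mice each: B16 without treatment, B16 with anti-PD1, an antibody to the checkpoint receptor PD1, at 200 μg a dose on day 5, day 8 and day 11 (B16PD1), and R499 without treatment. B16-F10 is a pigmented melanoma line of the same mouse strain, and R499 is a line grown out of 1 B16 tumor that had relapsed after radiation and anti-CTLA4, so the B16 against R499 comparison is between lines and not between treatments. Cells negative for CD45, a surface protein of immune cells, were sorted, and full-length Smart-seq libraries were made on the ICELL8 system.

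The S100 proteins carry EF-hands, helix-loop-helix folds that bind calcium, and most of them work as dimers that open on calcium binding and then hold a partner protein. They have no enzyme activity of their own, and their known partners include annexins, myosin heavy chain and p53. Outside the cell some of them bind the receptor RAGE, encoded by Ager. In melanocytes and melanoma S100b is the classical family marker used in pathology, while S100a4 and S100a6 are also common in fibroblasts and S100a8 and S100a9 in neutrophils.

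Of 602 cells, 507 were retained, each with over 1000 genes above a TPM of 0 and a mitochondrial share under 10%, and 11264 genes were above 0 in more than 5 of these cells, all 7 members included. The retained cells numbered between 75 and 91 per tumor. The number of reads behind a TPM value is unknown, so depth is given as the number of genes detected, that is, with TPM above 0, and its median per tumor lay between 3141 in R499015 and 3838.5 in B16PD1002. Cells of 1 tumor share a mouse and are not replicates, so conditions were compared over the 6 tumors. All 9 melanocyte markers were detected, and every retained cell had at least 3 of them, with Pmel, Tyrp1 and Dct in 100% of cells. Among the other lists, Cd8a of the immune markers, Col1a1 and Pdgfra of 7 fibroblast markers, Cdh5, Kdr and Tek of 4 endothelial markers, and all 3 keratinocyte markers were at 0 in the 507 cells. Other markers of these lists were detected. The most frequent were Fcer1g (28 cells, 5.52%) and Lyz2 (14) of the immune markers, Pdgfrb (8) and Lum (7) of the fibroblast markers, and Pecam1 (2) of the endothelial markers. A count of 0 among 507 cells allows a share of up to 0.592%, taken as 3 counts of 507 and not as a Wilson bound.

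Of the 7 genes, 6 lay on chromosome 3 in the GENCODE annotation of the assembly GRCm38, and all are protein coding. S100a1 (ENSMUSG00000044080) was at chr3:90511034-90514392 on the minus strand. S100a13 (ENSMUSG00000042312) followed at chr3:90514435-90524581 on the plus strand, with only 42 bases between both genes and 0 shared exon bases. S100a4 (ENSMUSG00000001020, chr3:90603771-90606045, plus) and S100a6 (ENSMUSG00000001025, chr3:90612882-90624181, plus) were 6836 bases apart. S100a11 (ENSMUSG00000027907, chr3:93520488-93526287, plus) and S100a10 (ENSMUSG00000041959, chr3:93555080-93564643, plus) formed another neighboring pair 28792 bases apart, and 2896306 bases separated S100a6 from S100a11. S100b (ENSMUSG00000033208, chr10:76253853-76261159, plus) lay alone on chromosome 10, where it overlaps Dip2a on the opposite strand without shared exon bases. S100a4 shared 302 of its 584 exon bases with the predicted gene Gm42674, which had no value of its own here, so reads in that stretch could belong to either. The processed pseudogene S100a11-ps on chromosome 12 was at 0 in all cells.

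S100a1 and S100a13 are transcribed away from each other, and in RefSeq their first bases on GRCm38.p6 were chr3:90514330 (minus) and chr3:90514435 (plus). The 300-base promoter windows, which span the start of each gene, therefore overlapped by 204 bases. The window of S100a13 is shown because it holds both starts, chr3:90514185-90514484 on the plus strand, with capitals from the first base of S100a1 through the first base of S100a13, 106 bases in all.
S100a1 and S100a13 shared promoter: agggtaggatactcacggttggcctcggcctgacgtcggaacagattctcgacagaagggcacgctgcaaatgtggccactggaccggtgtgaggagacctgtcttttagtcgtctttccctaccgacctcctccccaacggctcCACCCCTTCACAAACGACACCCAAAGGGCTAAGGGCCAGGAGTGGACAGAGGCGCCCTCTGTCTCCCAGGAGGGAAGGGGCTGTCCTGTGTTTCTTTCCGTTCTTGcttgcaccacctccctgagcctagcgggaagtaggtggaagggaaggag
This stretch had 59.3% G and C over its 300 bases, and the median of 32851 such mouse windows was 52.7%.

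RefSeq windows were found for 6 of the 7 genes, and S100a10 had none. They were searched on both strands for the TATA box TATAAA, the GC box GGGCGG, the E-boxes CATGTG and CACGTG, and the AP-1 site TGANTCA. The motifs do not overlap each other in the matches found. The windows of S100a4 and S100a11 are shown because the matches differed most between them, with the matched letters in capitals. S100a4, the least detected member, had the only TATAAA among the 6, which begins at position -31 relative to its first base, and 13.6% of all windows hold that motif. S100a11 had 3 GGGCGG (found in 35.7% of all windows), 2 TGAGTCA that match TGANTCA (7.81%) and 1 CACGTG (7.15%).
S100a4 promoter, chr3:90603520-90603819, plus strand: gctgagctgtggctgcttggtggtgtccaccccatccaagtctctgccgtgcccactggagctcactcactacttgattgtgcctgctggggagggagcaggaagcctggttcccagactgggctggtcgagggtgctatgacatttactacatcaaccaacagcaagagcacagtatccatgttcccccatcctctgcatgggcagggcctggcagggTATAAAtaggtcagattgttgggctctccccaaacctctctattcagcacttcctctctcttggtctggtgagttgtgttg
S100a11 promoter, chr3:93520246-93520545, plus strand: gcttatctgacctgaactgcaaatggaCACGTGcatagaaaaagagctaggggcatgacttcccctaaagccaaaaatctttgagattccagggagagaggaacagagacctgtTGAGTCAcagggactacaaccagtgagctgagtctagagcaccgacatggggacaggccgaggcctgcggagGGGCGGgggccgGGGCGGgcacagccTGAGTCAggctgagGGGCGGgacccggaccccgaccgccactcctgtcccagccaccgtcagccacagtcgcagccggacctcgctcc
S100a6 had 1 CACGTG, which begins 14 bases after its first base, and the windows of S100a1, S100a13 and S100b had no match to any of the motifs. Of the 2 E-boxes searched, CATGTG, a sequence bound by the melanocyte factor MITF, was in 0 of the 6 windows and in 14.2% of all windows. The other E-box, CACGTG, was in 2 of the 6 windows (S100a6 and S100a11), and which factors bind it was not examined. These are matches of letters in these windows and not measured binding sites.

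The members differed widely in how many cells they were detected in. S100a1, best known from heart and skeletal muscle where its protein acts on calcium handling, was detected in 398 of 507 cells, or 78.5% (95% Wilson interval 74.7 to 81.9, for counting error only). S100b was detected in 379 cells, 74.8% (70.8 to 78.3). The annexin A2 partner S100a10, which has lost the ability to bind calcium, was detected in 260 cells, 51.3% (46.9 to 55.6), and S100a11, a partner of annexin A1, in 242 cells, 47.7% (43.4 to 52.1). S100a13, which takes part in the export of fibroblast growth factor 1, was detected in 176 cells, 34.7% (30.7 to 39.0). S100a6, a partner of the Cacybp protein, was detected in 62 cells, 12.2% (9.66 to 15.4). S100a4, which binds nonmuscle myosin and is known from motile and metastatic cells, was detected in 33 cells, 6.51% (4.67 to 9.0). Against the 11264 genes tested, these mean levels of log2(TPM + 1) over cells lay above those of 32.4% of genes for S100a4 and of 95.01% for S100a1, with S100b above 89.0%.

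**Figure D1:**
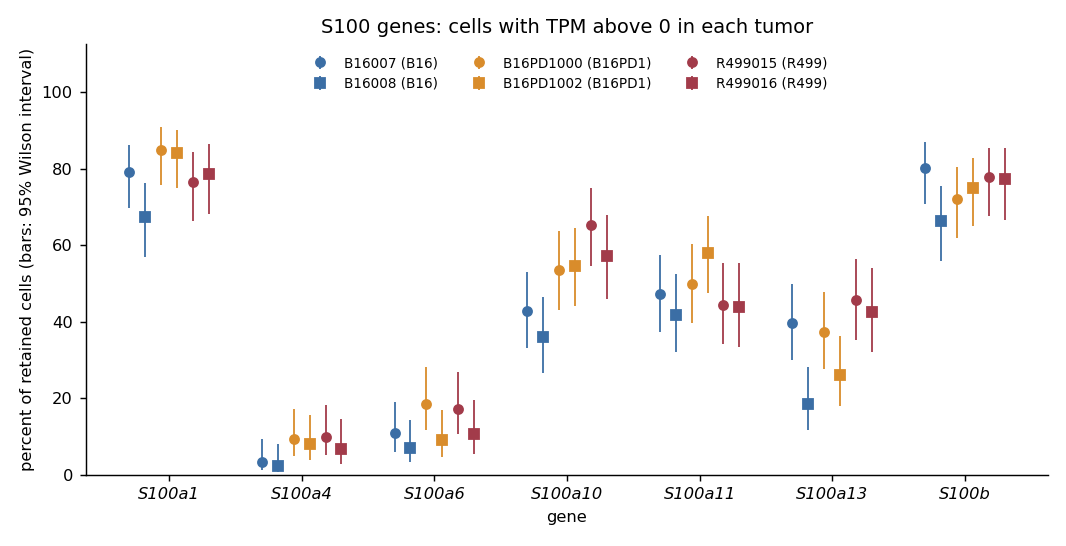
Percent of retained cells with TPM above 0 for each S100 gene (vertical axis) in each of the 6 tumors, with bars for the 95% Wilson interval of each tumor. S100a1 and S100b lie between 66.3% and 84.9% in every tumor, and S100a4 stays below 10% in all of them.

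Shares by tumor kept this picture. S100a1 was detected in 79.1% of cells in B16007, 67.4% in B16008, 84.9% in B16PD1000, 84.1% in B16PD1002, 76.5% in R499015 and 78.7% in R499016. S100b was detected in 80.2, 66.3, 72.1, 75, 77.8 and 77.3% of cells in the same order. Both genes were thus in the majority of cells of every tumor, with B16008 lowest. S100a10 was detected in 42.9% of cells in B16007, 36.0% in B16008, 53.5% in B16PD1000, 54.5% in B16PD1002, 65.4% in R499015 and 57.3% in R499016. The R499 shares were the highest and the B16 shares the lowest, with no overlap between any 2 conditions. S100a11 had 47.3, 41.9, 50, 58.0, 44.4 and 44.0% in that order, with both B16PD1 tumors above the other 4. S100a13 had 39.6, 18.6, 37.2, 26.1, 45.7 and 42.7%, with both R499 tumors highest and B16 the widest apart. S100a6 had 11.0, 6.98, 18.6, 9.09, 17.3 and 10.7%, and S100a4 had 3.30, 2.33, 9.30, 7.95, 9.88 and 6.67%. For S100a4 both B16 tumors were lowest, on 3 and 2 cells, while for S100a6 the conditions overlapped. How many of all genes separate the conditions in this way on the share of cells was not counted. On levels, B16PD1 lay above B16 without overlap for 17.9% of all genes and below for 15.4%. R499 lay above B16 for 11.6% and below for 30.1%, and above B16PD1 for 10.2% and below for 31.3%.

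Levels were also taken over the detecting cells of each gene alone. Among detecting cells S100a1 had a median of 433 TPM, S100a11 304, S100a4 258, S100a10 211, S100a6 193, S100a13 101 and S100b 99.0. S100b was detected in more cells than any member but S100a1 and had the lowest median. S100a4 had the second smallest exon length, 584 bases, the fewest cells and the third highest median. For every member this median was lower in the 127 cells with the most genes detected than in the 127 with the fewest. S100a4 went from 1154 TPM, on 2 cells, to 139, S100a10 from 584 to 148, S100a1 from 575 to 413 and S100b from 148 to 98.8. The parts of depth and exon length in the order of the medians were not tested. The exon length of S100b, 1484 bases, was the longest of the 7, and that of S100a11, 511 bases, the shortest. Above 1000 TPM there were 60 cells for S100a1, 18 for S100a11, 15 for S100a10, 7 for S100a6, 3 for S100a4 and 1 each for S100a13 and S100b.

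Levels are means of log2(TPM + 1) over the retained cells of each tumor, zeros included. S100a1 had levels of 6.85 in B16007, 5.69 in B16008, 7.26 in B16PD1000, 7.05 in B16PD1002, 6.97 in R499015 and 7.03 in R499016. S100b had levels of 5.01, 4.34, 4.59, 4.78, 5.30 and 5.08 in the same order. S100a1 was the most abundant member in every tumor. S100a10 had levels of 3.36, 2.53, 4.12, 4.12, 5.31 and 4.35. S100a11 had levels of 3.89, 3.50, 3.93, 4.66, 3.62 and 3.55. S100a10 was thus below S100a11 in both B16 tumors and above it in both R499 tumors. S100a13 had levels of 2.68, 1.25, 2.39, 1.78, 2.91 and 2.79. S100a6 had 0.82, 0.57, 1.47, 0.76, 1.27 and 0.74, and S100a4 had 0.27, 0.21, 0.70, 0.67, 0.72 and 0.53. Neighbors in the order of mean level were compared by an exact sign-flip permutation test over the 6 tumors, two-sided, with 6 pairs and Benjamini-Hochberg adjustment. The order that set these pairs was taken from the same 6 tumors, so the p-values give no independent support to it. S100a1 exceeded S100b by 1.96 ± 0.46 (SD, n = 6 tumors), S100a11 exceeded S100a13 by 1.56 ± 0.86, S100a13 exceeded S100a6 by 1.36 ± 0.56, and S100a6 exceeded S100a4 by 0.42 ± 0.25. Each of these 4 differences had the same sign in 6 of 6 tumors, with exact permutation p = 0.03125, the smallest 6 tumors can give, and adjusted p = 0.0469. S100b exceeded S100a10 by 0.88 ± 0.71 in the mean and in 5 of 6 tumors, which did not pass the test (exact permutation p = 0.0625, adjusted p = 0.075). S100a10 against S100a11 differed by 0.11 ± 0.996, less than the spread, with S100a10 higher in 3 of 6 tumors (exact permutation p = 0.8125).

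**Figure D2:**
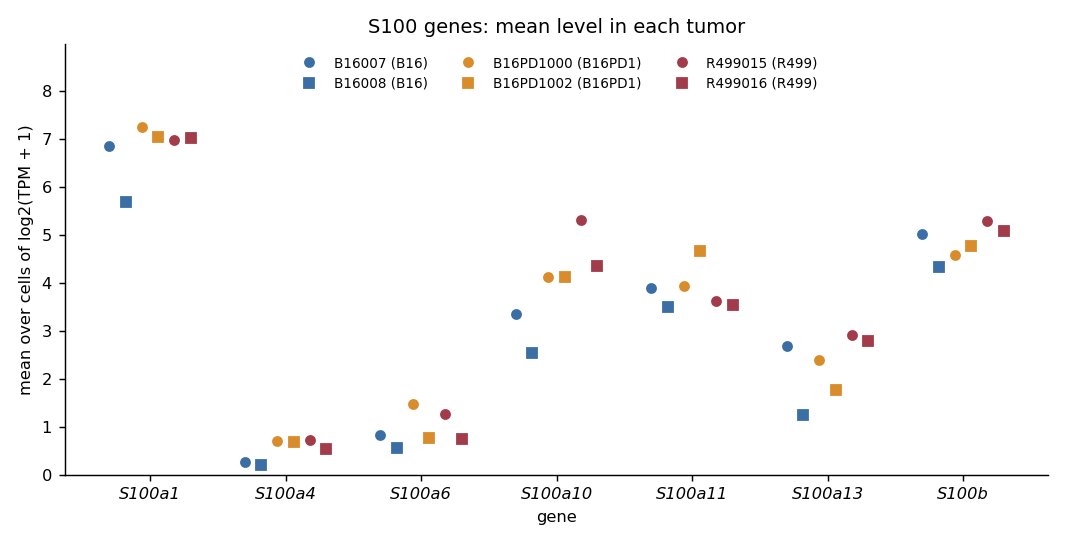
Mean over retained cells of log2(TPM + 1) for each S100 gene (vertical axis), with 1 point per tumor, colored by condition. The S100a10 points climb from 2.53 and 3.36 in B16 to 4.35 and 5.31 in R499, and B16008 is the lowest point for each of the 7 genes.

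B16008 had the lowest level of 7 of the 7 members. Over all genes tested it was the lowest tumor for 19.5%, and R499015 was the lowest for 30.1% and for none of the members. R499015 was instead the highest tumor for 4 members (S100a4, S100a10, S100a13 and S100b), against 10.2% of all genes. The members are correlated between cells, so these 7 are not independent. Median genes detected were 3388.5 in B16008 and 3141 in R499015, the 2 lowest of the 6 tumors.

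B16PD1 was compared with B16 to see which members differed after anti-PD1 in the same line. None of the 7 members passed the test. All 7 differences of mean log2(TPM + 1) were above 0, but on the log2 of the mean TPM plus 1 they were -0.048 for S100a1, -0.15 for S100a11, -0.21 for S100a13 and -0.22 for S100b, so the direction of these 4 turned with the scale. Differences are B16PD1 minus B16 on the log2(TPM + 1) scale, which understates changes of low genes, from limma across all genes with p-values adjusted by the Benjamini-Hochberg method. S100a10 differed by 1.17 (SE 0.39, n = 2 against 2 tumors, adjusted p = 0.989), S100a1 by 0.89 (SE 0.36, 0.989) and S100a4 by 0.44 (SE 0.14, 0.989). These 3 had an unadjusted limma p below 0.05, at 0.00819, 0.0263 and 0.00601, while 4.69% of all genes did. S100a11 differed by 0.61 (SE 0.35), S100a6 by 0.42 (SE 0.26), S100a13 by 0.12 (SE 0.40) and S100b by 0.0091 (SE 0.35). The lack of a call is shared with the whole transcriptome, since 0 of 11264 genes (0%) passed an adjusted p of 0.05 in limma. Both B16PD1 tumors were above both B16 tumors for 4 of the 7 members (S100a1, S100a4, S100a10 and S100a11), as they were for 17.9% of all genes, and 0 members were lower without overlap against 15.4% of all genes. The median difference was 0.44 over the members and 0.012 over all genes tested. On the share of cells, the same limma test over all genes called 0 members and 0% of all genes, and 3 members had an unadjusted p below 0.05 against 4.99% of all genes. The share differed by 14.6 percentage points for S100a10 (SE 5.11), 11.2 for S100a1 (SE 3.86) and 5.82 for S100a4 (SE 1.98), each with an adjusted p of 0.920. Levels moved with single tumors. Without B16008, the level difference of S100a1 was 0.30, that of S100a10 0.76, that of S100a11 0.41 and that of S100a6 0.29, S100a13 and S100b were at -0.59 and -0.33, and S100a4 was at 0.41. Without B16007, S100a1 was at 1.47 and S100a13 at 0.83. With 1 tumor left out, S100a6 ran from 0.066 (without B16PD1000) to 0.78 (without B16PD1002), and S100a11 from 0.24 (without B16PD1002) to 0.97 (without B16PD1000).

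R499 was compared with B16 to see which members differed between the relapsed line and the line it came from. S100a10 stood at 2.95 ± 0.58 in B16 (SD, n = 2) and 4.83 ± 0.69 in R499 (SD, n = 2), the largest difference of any member in the 3 comparisons. Its share of cells was 39.5 ± 4.82% in B16 and 61.4 ± 5.73% in R499. The difference was 1.88 (SE 0.39, 95% limma interval 1.06 to 2.71), ranked 18 of 11264 genes by p, with an unadjusted limma p of 0.000175 and an adjusted p of 0.0947, so it did not pass 0.05. Only 7 genes of 11264 (0.0621%) did, and none was a member. The call turned with the processing: S100a10 passed when no cells were removed (difference 2.21, adjusted p = 0.0157), when the mean of each cell was subtracted (1.99, 0.0185) and when only cells with 3000 to 5000 genes were used (2.71, 0.0271), and the adjusted p over all 16 alternatives lay between 0.0157 and 0.765. The last of these was chosen after the data were seen. With 1 tumor left out the difference was 1.40 at the lowest and 2.37 at the highest, and the adjusted p ran from 0.0511 to 0.736.

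The other members differed less between R499 and B16. S100a13 was 0.89 higher in the mean (SE 0.40, limma adjusted p = 0.453) and S100a4 0.38 higher (SE 0.14, 0.380), and with S100a10 these were the 3 members with an unadjusted p below 0.05, against 10.5% of all genes. S100a1 differed by 0.73 (SE 0.36, 0.498), S100b by 0.52 (SE 0.35, 0.625) and S100a6 by 0.31 (SE 0.26, 0.711). S100a11 was the only member with a difference below 0, -0.11 (SE 0.35, 0.944), although S100a6 was at -0.14 on the log2 of the mean TPM plus 1 and S100a11 above 0 without a filter on cells (0.33). Both R499 tumors lay above both B16 tumors for 5 of 7 members, where 11.6% of all genes did, and 0 members lay below without overlap, where 30.1% of all genes did. The median difference was 0.52 over the members and -0.073 over all genes tested. On the share of cells, limma called 0 members and 0% of all genes at an adjusted p of 0.05. The share of S100a10 differed by 21.9 percentage points (SE 5.11, limma adjusted p = 0.460), and 2 members were below an unadjusted 0.05 against 9.93% of all genes. S100a13 was detected in 18.6% of cells in B16008, and without that tumor its level difference was 0.18, that of S100b 0.18 and that of S100a1 0.15, while that of S100a10 was 1.47. Without B16007, S100a13 was at 1.60, S100a1 at 1.32 and S100b at 0.85, and without R499015 S100a6 was at 0.043.

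**Figure D3:**
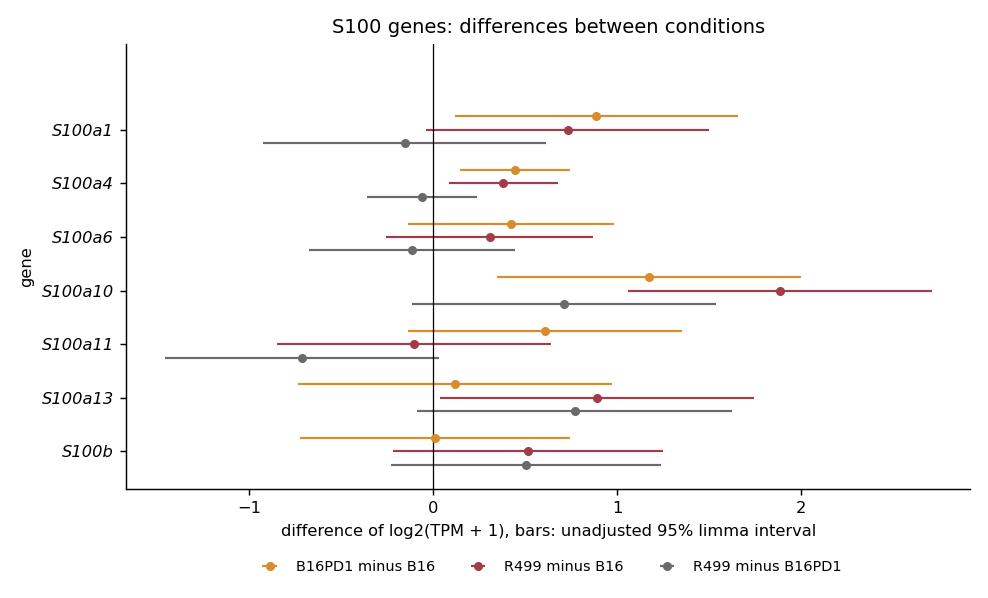
Differences between conditions in log2(TPM + 1) for each S100 gene (horizontal axis), with bars for the unadjusted 95% limma interval over 2 against 2 tumors. S100a10 in R499 minus B16 lies farthest from 0, at 1.88, and S100a11 in R499 minus B16PD1 is the lowest, at -0.71.

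R499 and B16PD1, which differ in line and in treatment at once, were also set side by side. The differences of R499 minus B16PD1 were 0.77 for S100a13 (SE 0.40), 0.71 for S100a10 (SE 0.39), 0.51 for S100b (SE 0.35), -0.062 for S100a4 (SE 0.14), -0.11 for S100a6 (SE 0.26), -0.15 for S100a1 (SE 0.36) and -0.71 for S100a11 (SE 0.35). None passed the test, with limma adjusted p-values from 0.501 to 0.911, 0 of 7 members had an unadjusted p below 0.05 against 10.2% of all genes, and 8 genes of 11264 (0.071%) were called. Without R499015 the difference of S100a10 was 0.23, and without R499016 it was 1.19. That of S100a11 was -0.35 without B16PD1002 and -1.08 without B16PD1000, and that of S100a13 was 0.46 without B16PD1002. S100a10, S100a13 and S100b were higher in both R499 tumors without overlap (10.2% of all genes were), and S100a1 and S100a11 were lower without overlap (31.3% of all genes were). On the log2(TPM + 1) scale S100a11 thus had its highest levels in B16PD1, while S100a10 and S100a13 had theirs in R499. On mean TPM, S100a11 was instead highest in B16, at 221, with 200 in B16PD1 and 202 in R499. On the share of cells 0 members and 0% of all genes were called by limma, and 0 members had an unadjusted p below 0.05, against 12.6% of all genes. These comparisons share tumors pairwise, so they are not independent of each other.

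S100a10 is also expressed in many immune cells, so immune markers are given beside it. The summed log2(TPM + 1) of the 11 immune markers was 0.62 to 1.07 in the B16 tumors, 0.66 to 1.36 in the B16PD1 tumors and 0.33 to 0.52 in the R499 tumors. Of the 11, 4 were tested and 0 were called by limma in any comparison, with 0, 0 and 1 below an unadjusted p of 0.05 for B16PD1 against B16, R499 against B16 and R499 against B16PD1. Their part in the S100a10 levels was not tested. Any immune marker was detected in 13.1% of cells with S100a10 and 5.67% of cells without it, and at least 3 of them in 0.769% and 0%. This was not particular to S100a10. For S100a6 the shares were 14.5% and 8.76% for any marker, and 3.23% and 0% for at least 3. For S100a4 they were 12.1% and 9.28%, and 3.03% and 0.211%. S100a11 (9.50% and 9.43%) and S100b (9.50% and 9.38%) hardly differed for any marker. Cells with S100a10 also had more genes detected, a median of 4209.5 against 3039, and the part of depth in the marker shares was not tested. S100a4 showed the largest gap for the 7 fibroblast markers, at least 1 of which was detected in 18.2% of cells with S100a4 and 3.80% of cells without it, on 33 cells. The part of fibroblast RNA in the S100a4 values was not tested. For S100b, a gene shared with Schwann cells, the 4 Schwann markers were led by Mbp, detected in 82.1% of cells, with Ncmap at 0.

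How many members a cell showed went with its depth. The mean number of members detected per cell was 3.06 of 7, with 25 cells showing none and 8 cells showing all 7. The 25 cells without any member had a median of 1896 genes detected, and the 202 cells with 4 or more members had a median of 4615. B16008 averaged 2.40 members per cell, and the other tumors lay between 3.03 and 3.37. Retained cells were also divided into 4 groups of 126 or 127 by genes detected. S100a1 was detected in 51.2, 74.6, 88.2 and 100% of cells from the shallowest to the deepest group. S100b was detected in 49.6, 74.6, 81.9 and 92.9%, S100a10 in 27.6, 37.3, 63.8 and 76.4%, and S100a11 in 22.0, 30.2, 64.6 and 74.0%. S100a13 was detected in 14.2, 26.2, 40.2 and 58.3%, S100a6 in 3.15, 7.94, 15.7 and 22.0%, and S100a4 in 1.57, 3.97, 6.30 and 14.2%. Every member was thus found in more cells at each step of depth, so that the shares over all cells depend on it, and in the deepest group S100a1 was found in all 127 cells. The order of the genes was the same in each group, except that S100a1 and S100b were level in the second and S100a11 exceeded S100a10 in the third. Over cells within tumors, the Pearson correlation between level and genes detected was highest for S100a1 (0.39) and S100a11 (0.37) and lowest for S100a4 (0.15), with a median of 0.25 over the 8139 genes detected in at least 10% of cells.

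**Figure D4:**
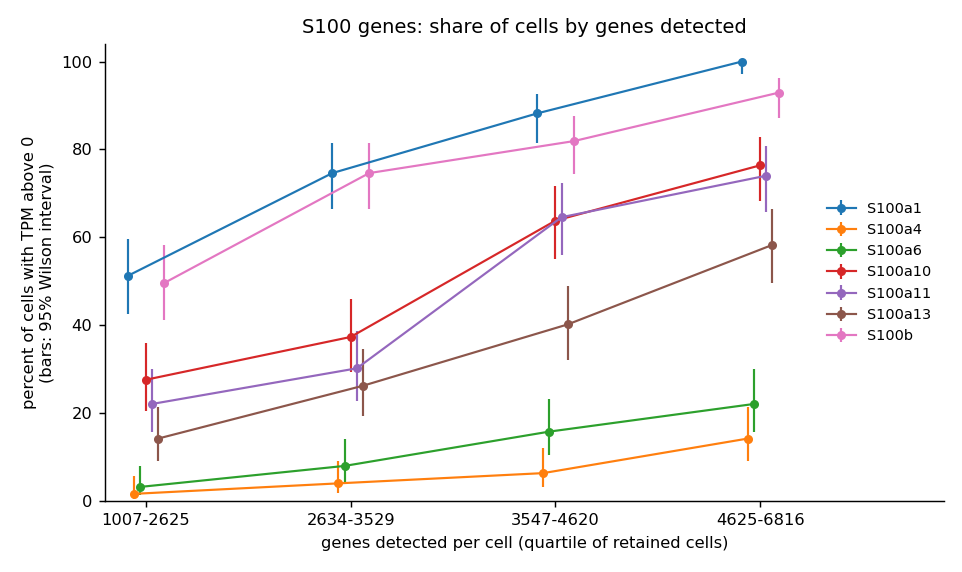
Percent of cells with TPM above 0 for each S100 gene (vertical axis) in 4 groups of retained cells ordered by genes detected (horizontal axis), with 95% Wilson intervals. Every line climbs, S100a1 from 51.2% to 100% and S100a4 from 1.57% to 14.2%.

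Members were then compared between cells, as the Pearson correlation of log2(TPM + 1) over the 507 cells after each tumor's mean was subtracted. Cells share tumors, depth and the TPM scale, so these values are a description without a test. All 21 pairs were positive, between 0.019 (S100a4 and S100a13) and 0.26 (S100a6 and S100a10), with a mean of 0.14. Over all pairs of the 8139 genes the median was 0.062 and the 95th percentile 0.16, and 8 of the 21 pairs lay above the latter. After the number of genes detected was also removed, the mean was 0.057 and 16 of the 21 were positive, with 9 above the 95th percentile of all gene pairs, 0.080, whose median was 0.00071. The values over all 507 cells are weak throughout.

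Over all retained cells, zeros included, S100a6 and S100a10 were the closest pair, with r = 0.26 (0.11 to 0.35 in the 6 tumors) and 0.20 once genes detected was removed. S100a10 was detected in 83.9% of the cells with S100a6 and in 46.7% of the cells without it, and 52 cells had both. S100a10 and S100a11 followed with 0.24 (0.14 to 0.32 in the tumors) and 0.15 after removal, and S100a11 was detected in 61.5% of cells with S100a10 and 33.2% without. Both of these pairs were positive in 6 of 6 tumors before and after the removal. S100a4 and S100a6, also neighbors on chromosome 3, had r = 0.19 and 0.17 after removal, but ranged from -0.063 to 0.41 between tumors and shared only 11 cells. S100a1 and S100b, the 2 broadest members, had 0.21, and 0.11 after removal. S100a1 and S100a13, whose promoter windows overlap, had 0.17 (0.029 to 0.30 in the tumors) and 0.060 after removal, with 4 of 6 tumors then positive. S100a13 was detected in 39.9% of cells with S100a1 and 15.6% of those without it. At the other end, S100b and S100a10 had 0.042, and -0.055 after removal. The order differed over only the cells with both genes of a pair, where S100a6 and S100a10 had 0.37. There S100a6 and S100a13 had 0.55 on 39 cells, S100a6 and S100a11 0.42 on 42 cells, and S100a4 and S100a10 0.39 on 28 cells.

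**Figure D5:**
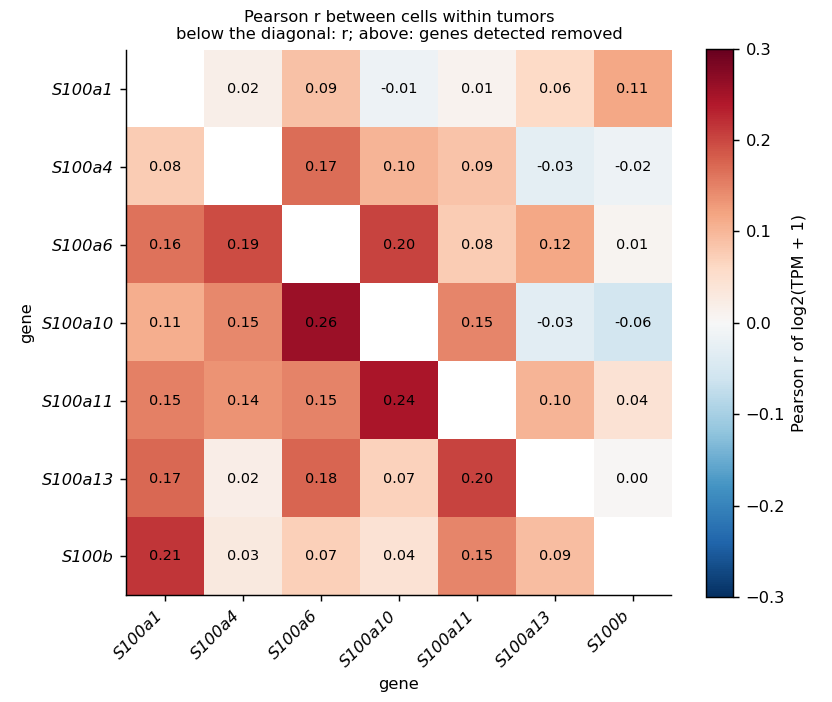
Pearson r of log2(TPM + 1) between cells within tumors for each pair of S100 genes, with plain values below the diagonal and values after removal of the number of genes detected above it. S100a6 and S100a10 have the darkest square on both sides, 0.26 and 0.20.

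The genes most like each member between cells were found by the same correlation, with genes detected removed, among 8133 other genes. S100b was most like Dct (0.22), an enzyme of melanin synthesis, with Sars at 0.19 and Selenos at 0.19. S100a10 was most like Emp3 (0.23) and Anxa1 (0.22), which encodes annexin A1. S100a6 was most like Nppb (0.22), Lgals3 (0.21), which encodes galectin 3, and Slc27a1 (0.20). S100a4 was most like Ctsh (0.18), Cd68 (0.18) and Fam92a (0.17), of which Cd68 is a lysosomal gene known as a macrophage marker. S100a1 was most like Ndufb2 (0.22), Atp6v0e (0.21) and Atp5l (0.20), which encode parts of respiratory complex I, the vacuolar proton pump and the mitochondrial ATP synthase. S100a11 was most like Lgals7 (0.19), Smim14 (0.19) and Tmsb4x (0.16), and S100a13 most like Bmi1 (0.21), Tmsb4x (0.18) and Hint2 (0.18). These are the highest of 8133 values for each member and were not tested. Between the 6 tumors, Ctsh with S100a4 ranged from -0.091 to 0.63. The lowest tumor was also below 0 for Sars (-0.042) and Selenos (-0.012) with S100b and for Smim14 (-0.014) with S100a11. It was above 0 for the other genes named here.

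Of 11 other S100 genes listed, 10 had values and only S100a16 passed the filter on genes. S100a16 lies between S100a13 and S100a4 at chr3:90537254-90543151 and was detected in 133 cells, 26.2%. Its levels were 1.97 in B16007, 1.87 in B16008, 2.16 in B16PD1000, 1.57 in B16PD1002, 1.13 in R499015 and 0.98 in R499016. Both R499 tumors were below all others, with a difference of -0.86 against B16 (SE 0.30, limma adjusted p = 0.360) and -0.80 against B16PD1 (SE 0.30, 0.385), neither past the threshold. Of all genes, 30.1% were lower without overlap in R499 against B16 and 31.3% against B16PD1. S100a8 was detected in 3 cells, S100a3 and S100a7a in 1 cell each, and S100a2, S100a5, S100a9, S100a14, S100g and S100z in none of the 507.

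Known partners and receptors of S100 proteins numbered 25, of which 22 were tested and 0 were called in any comparison by limma, with 1, 4 and 1 of them below an unadjusted p of 0.05 for B16PD1 against B16, R499 against B16 and R499 against B16PD1, where 4.69%, 10.5% and 10.2% of all genes were. The most abundant were the annexin genes Anxa5, Anxa2 and Anxa1. Anxa2, whose protein binds that of S100a10, had levels of 8.28 in B16007, 7.75 in B16008, 8.59 in B16PD1000, 8.26 in B16PD1002, 9.01 in R499015 and 8.52 in R499016, and was detected in 94.3% of cells. Anxa1 had 6.47, 5.39, 5.75, 6.16, 7.30 and 6.82, with both R499 tumors above all others and a difference of 1.13 against B16 (SE 0.38, limma adjusted p = 0.349). Of all genes, 11.6% were higher without overlap in R499 against B16 and 10.2% against B16PD1. Anxa5 had 9.17, 8.62, 8.97, 9.0, 9.60 and 9.19, with B16008 the lowest here too. Between cells, S100a10 had a correlation of 0.29 with Anxa1 and 0.18 with Anxa2, or 0.22 and 0.11 with genes detected removed, and S100a11 had 0.17 and 0.082 with Anxa1. Ager, the gene of the receptor RAGE, was detected in 5 cells, and Tlr4 in 157. Of 23 genes of other EF-hand proteins, 20 were tested and 0 called, with 0, 2 and 2 below an unadjusted p of 0.05 in the same order, against the same shares of all genes. Myl6, a light chain of myosin, was the most abundant of these with levels between 8.53 and 10.1, followed by Calu and Calm2, and the differences of the 3 had limma adjusted p-values between 0.614 and 0.989.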

How the data were processed

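The authors aligned the reads of each cell with STAR in 2-pass mode, quantified transcripts with RSEM, both at default settings, and deposited TPM per gene and cell before any filter on cells. The submitters' processing notes name mm10, and versions are not given in the sources used here. Column names carry the condition and a tumor number, no well position was shared by any of the 602 cells, and doublets were not called.

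Cells and genes were filtered by the limits of the study (mitochondrial share from 37 genes), other than its minimum of mapped reads, since TPM holds no read counts. Contrasts were fitted to the 6 tumor means of log2(TPM + 1), with a pseudocount of 1, in R 4.3.3 by limma 3.58.1 (eBayes with a trend, two-sided), adjusted by Benjamini-Hochberg over 11264 genes with a threshold of 0.05. The study tested cells, whereas here the tumor was the replicate, and with 2 tumors per condition the p-values rest on a variance shared by the 6. Shares of cells were fitted the same way. Other steps used matplotlib 3.10.9, scipy 1.17.1, pandas 2.3.3, numpy 2.4.6 and Python 3.11.15. The fit was tested on simulated data.

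Positions come from GENCODE on GRCm38, in which 25103 of 25215 gene IDs were found, and promoters from RefSeq on GRCm38.p6, and the authors' annotation may differ. Genes named by rule are the 7 members, the 3 most abundant of each list of other S100, partner and EF-hand genes with any called, and for each member the 3 most correlated genes detected in at least 10% of cells. One gene that this rule names is not reported here. The remaining S100 genes, Ager and Tlr4 were added after their values were seen. Members, lists and tests were chosen with earlier results of these data known. Alternatives were pseudocounts of 0.1 and 10, the log2 of mean TPM, other filters on cells and genes, subtraction of each cell's mean, genes detected as a covariate, no trend, and leaving out each tumor.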

Additional observations from a re-analysis of the deposited data

How the results depend on the processing

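No paired analysis was possible because the columns of the deposited values carry tumor numbers that are in no label, so the replicate numbers of the labels could not be tied to tumors, and the fit with that number as a block was not run. No member was called in B16PD1 minus B16 or R499 minus B16PD1 under the 16 alternatives run for levels, or in any comparison under the 8 run for shares of cells (more than 2000 genes, 3000 to 5000 genes, and each tumor left out). By level in R499 minus B16, 1 member (S100a10) was called without a filter on cells, with the mean of each cell subtracted and in cells with 3000 to 5000 genes, and 0 under the others. The window of 3000 to 5000 genes and the alternatives for shares of cells were chosen after seeing the data. Genes called over all genes were 7 in R499 minus B16, and 11 and 3 with pseudocounts of 0.1 and 10, 22 without a filter on cells, 20 in cells with more than 2000 genes, 28 with cell means subtracted, 12 in cells with 3000 to 5000 genes, and 0 with log2 of the mean TPM, with genes detected as a covariate and without a trend. In R499 minus B16PD1 they were 8, and 13 and 3 with those pseudocounts, 14 without a filter on genes, 16 without a filter on cells, 14 above 2000 genes, 22 with cell means subtracted, 3 in the window, and 0 in the same 3 settings. In B16PD1 minus B16 they were 0, and 13 without a filter on genes. With 1 tumor left out, the counts ranged from 2 to 12, from 3 to 17 and from 0 to 2 in that order, with a lone tumor assumed to vary like the others. Some uncalled differences changed sign, among them those of S100a1 (0.89) and S100a11 (0.61) in B16PD1 minus B16 and of S100a11 (-0.71) in R499 minus B16PD1, and the cause was not tested. In B16PD1 minus B16, S100b was at -0.019 with a pseudocount of 10, -0.22 with log2 of the mean TPM, -0.023 with cell means subtracted and -0.22 with the covariate, S100a13 at -0.21 with the mean TPM and -0.50 with the covariate, and S100a1 and S100a11 at -0.048 and -0.15 with the mean TPM. In R499 minus B16, S100a6 was at -0.14 with the mean TPM, and S100a11 at 0.33 without a filter on cells, 0.062 with the covariate and 0.59 in the window. In R499 minus B16PD1, S100a1 was at 0.057 with a pseudocount of 10, 0.39 with the mean TPM, 0.094 without a filter on cells, 1.24 with the covariate and 0.049 in the window, S100a11 at 0.022 with the mean TPM, S100a4 at 0.073 with cell means subtracted, and S100a6 at 0.020 with cell means subtracted, 0.022 with the covariate and 0.47 in the window. With 1 tumor left out, the sign also changed for S100a13 (-0.59 to 0.83) and S100b (-0.33 to 0.35) in B16PD1 minus B16, S100a11 (-0.30 to 0.088) in R499 minus B16, and S100a4 (-0.15 to 0.029) and S100a6 (-0.47 to 0.24) in R499 minus B16PD1. S100b was detected in 80.1% of cells with more than 2000 genes. The mean correlation of the pairs was 0.057 with genes detected removed, and 0.19 over cells with both genes of a pair.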
